A study of Mus musculus with 35 samples.

Results

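The genes described are 9 subunits of ATP-dependent chromatin remodelling complexes in single mouse zygotes and early 2-cell (2C) embryos: Smarca4, Smarca2, Smarcb1, Smarcc1, Arid1a, Smarca5, Chd1, Chd4 and Ino80. They were chosen by gene symbol, with earlier results of these data known, as 9 of the 24480 genes in the count table. All 9 passed the filter on low counts in every comparison. Chromatin remodellers use ATP to slide, evict or exchange nucleosomes, and their SNF2-type ATPases fall into the SWI/SNF, ISWI, CHD and INO80 families. SMARCA4 (BRG1) and SMARCA2 (BRM) are the alternative ATPases of the SWI/SNF (BAF) complexes, in which SMARCB1 and SMARCC1 are core subunits and ARID1A a large subunit of canonical BAF. SMARCA5 (SNF2H) is an ISWI ATPase that spaces nucleosomes, CHD1 is a remodeller of transcribed chromatin, CHD4 is the ATPase of the NuRD complex, and INO80 is the ATPase that gives its complex its name. BRG1 deposited by the oocyte is known to be needed for genome activation in mouse embryos.

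The series holds 35 total RNA libraries of wild-type C57BL/6NRj embryos injected in the cytoplasm with Kdm5b-yfp mRNA, which encodes the H3K4me3 demethylase KDM5B fused to a fluorescent protein, at about 1150 ng/µl, or with the nuclease-free water used to elute that mRNA. There were 10 Ctrl water zygotes, 10 Kdm5b zygotes, 9 Ctrl water 2C samples and 6 Kdm5b 2C samples. Zygotes were injected as zygotes and collected 17 h after ovulation, and 2C embryos were injected after division and collected 5.5 to 8 h after it. The labels count each library as a biological replicate, and the embryos carried no genetic modification. The 2C embryos came from cryopreserved and thawed zygotes, and the 2 stages were made into libraries on separate days, so stage, freezing and library day cannot be told apart. Of the Ctrl water 2C libraries 6 held 1 intact embryo each and 3 held pools of blastomeres from 2 or 3 embryos, and of the Kdm5b 2C libraries 5 held 1 intact embryo each and 1 a pool from 3 embryos. No group received mRNA of a fluorescent protein alone, so the response to KDM5B and to injected mRNA as such cannot be told apart.

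Total gene counts ran from 8705584 to 17797581 per library, and 188 to 28132 counts per library stood behind each member. Kdm5b took 2.30% to 10.4% of the counts in Kdm5b zygotes and 8.27% to 15.8% in Kdm5b 2C embryos, and at most 0.0189% in any water-injected sample. Its row was taken out before scaling. The summed level of 10 genes of the 2C programme was 27.0 to 117 TPM (counts divided by exon length and scaled to a common total) in Ctrl water zygotes and 332 to 1331 TPM in Ctrl water 2C embryos. The summed level of 8 oocyte genes was 6701 to 12728 TPM over all samples. The summed level of 10 cumulus cell genes had medians of 3.14 TPM in Ctrl water zygotes and 3.63 TPM in Kdm5b zygotes. In Ctrl water 2C and Kdm5b 2C embryos the medians were 9.04 and 4.89 TPM. Single samples ran from 1.35 to 22.9 TPM, and the highest was a Ctrl water 2C sample. In the Kdm5b groups the 2C genes were at 46.2 to 111 TPM in zygotes and at 325 to 797 TPM in 2C embryos. The 2C genes therefore set the stages apart with both injections, while the oocyte genes were present at both stages. p-values measure the spread between these libraries, some of which may share a collection of embryos.

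Promoters of 8 of the 9 members were found in the RefSeq table (GRCm38.p6, 250 bases before to 50 after the start of the transcript), with none for Chd1. The pair below is shown because Smarca5 rose and Smarcb1 fell from zygote to 2C (values further on), while both genes start in GC-rich sequence. Capitals mark GC boxes, GGGCGG on either strand, the motif bound by Sp1-type factors.
Smarca5 (chr8:80739410-80739709, minus strand): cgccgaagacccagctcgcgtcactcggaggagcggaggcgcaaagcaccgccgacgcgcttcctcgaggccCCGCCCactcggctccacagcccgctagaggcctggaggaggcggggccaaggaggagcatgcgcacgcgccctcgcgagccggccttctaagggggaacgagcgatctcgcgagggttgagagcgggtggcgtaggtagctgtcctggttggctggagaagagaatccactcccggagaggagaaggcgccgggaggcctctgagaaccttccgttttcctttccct
Smarcb1 (chr10:75921565-75921864, minus strand): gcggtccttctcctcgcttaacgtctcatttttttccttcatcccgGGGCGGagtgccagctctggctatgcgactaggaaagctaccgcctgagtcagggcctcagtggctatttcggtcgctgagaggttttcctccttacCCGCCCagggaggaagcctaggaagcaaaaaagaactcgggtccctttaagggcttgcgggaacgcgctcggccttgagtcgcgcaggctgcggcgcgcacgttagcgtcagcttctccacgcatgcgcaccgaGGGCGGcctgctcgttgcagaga
The Smarca5 window was 67.7% G or C with 1 GC box, and the Smarcb1 window was 60.7% G or C with 3. A GC box occurred in all 10 windows listed for the 8 members, against 35.7% of the 32851 promoters in the table. CCAAT, on either strand, occurred in 3 of the 10 windows, those of Ino80 and Chd4, against 37.4% of all promoters. TATAAA, on either strand, occurred in none of the 10, against 13.6% of all promoters. The 10 windows had a median of 66.8% G or C, from 57% to 79.7%, and the median over all promoters was 52.7%. Windows listed for 1 gene can overlap, and a match describes letters only.

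The question put to the stage comparison was which remodeller transcripts differed between late zygotes and early 2C embryos. Between Ctrl water zygotes and Ctrl water 2C embryos, Chd1, Arid1a, Chd4 and Smarca5 rose and Smarcb1 and Ino80 fell, by 1.24-fold to 2.10-fold, whereas Smarca4, Smarca2 and Smarcc1 did not pass the test. Values are CPM, a share of the counts of a library, scaled by trimmed mean of M values (TMM) over all 35 samples, given as the lowest, the median and the highest sample. The quasi-likelihood test of edgeR gave the fold changes and p-values, and the latter were adjusted by Benjamini-Hochberg over all genes tested. A gene that rose or fell had an adjusted p under 0.05, and a called gene also had a log2 fold change beyond 1 in size. By adjusted p alone 4 members were higher and 2 lower, against 26.8% and 25.4% of all 11968 genes tested. Past both thresholds 1 member was higher and 0 were lower, against 9.20% and 13.0% of all genes. The median log2 fold change of the 9 members was 0.12, and that of all genes tested was 0.02. Such shares do not show a change in the total RNA of a sample.

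**Figure D1:**
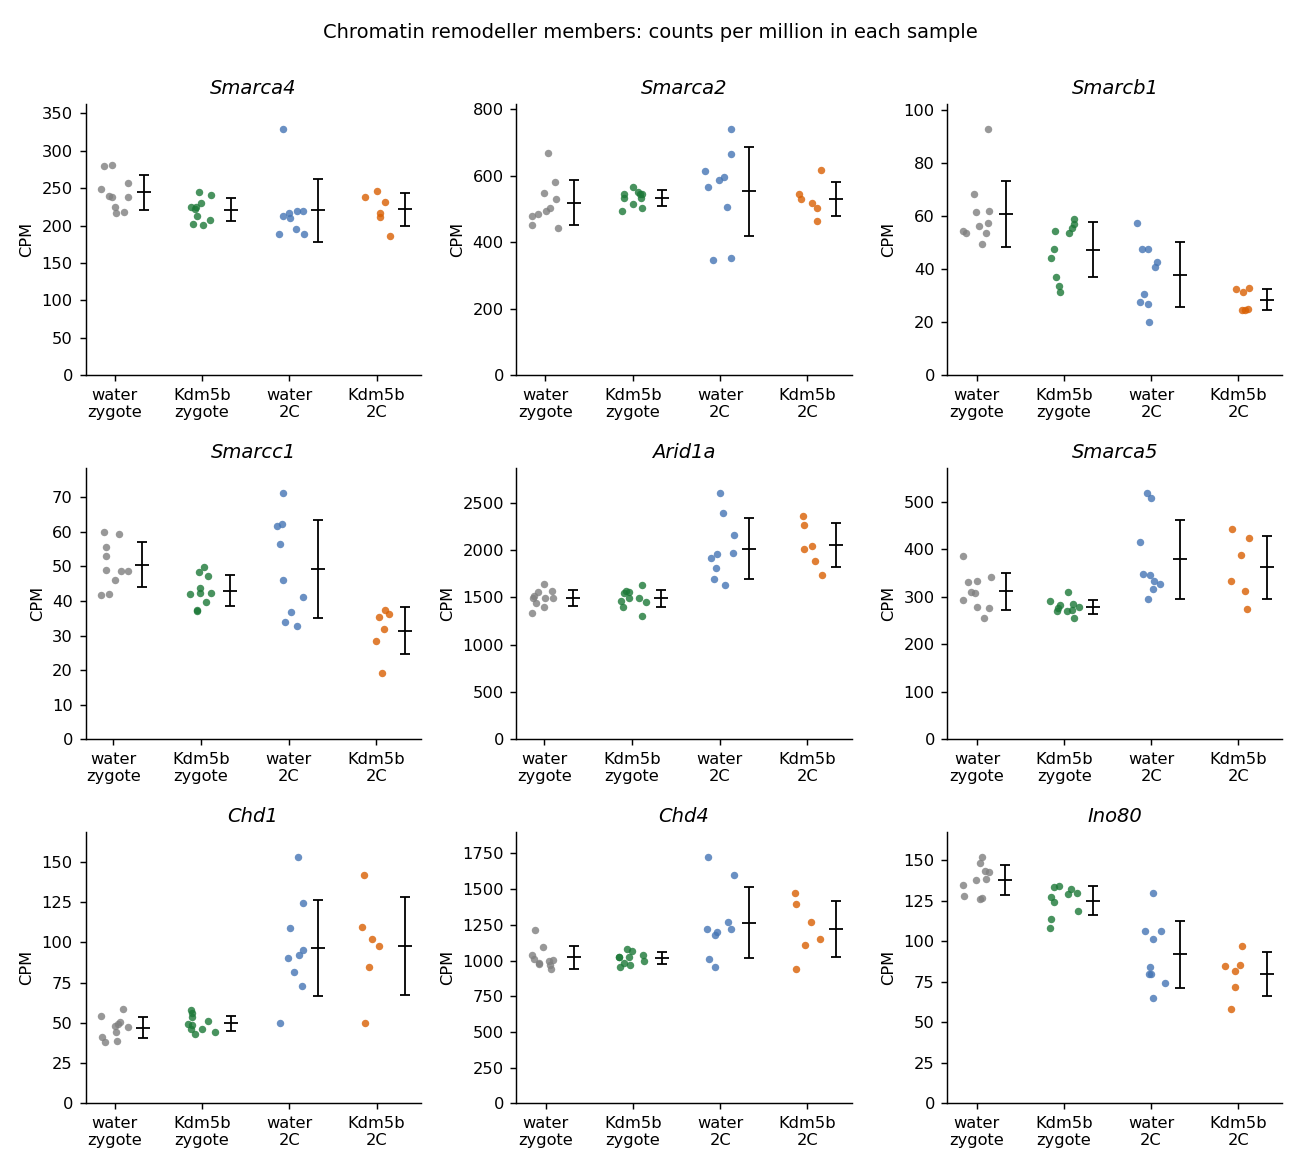
CPM (y axis, from 0) of each of the 9 members in every sample, in 4 groups (x axis). Points are samples, and black bars show mean ± SD (n = 10, 10, 9 and 6 from left to right). Chd1 and Arid1a lie higher and Smarcb1 and Ino80 lower in the 2C groups, and 1 Ctrl water 2C sample stands apart for Smarca4 at 329 CPM.

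Smarca4 (chr9:21616169-21704230 in mm10, plus strand, 34 merged exons), the BRG1 gene, was measured at 217, 239 and 281 CPM in Ctrl water zygotes and at 189, 213 and 329 CPM in Ctrl water 2C embryos. The groups overlapped, with 6 of 9 2C samples below every zygote and 1 above every zygote. The log2 fold change was -0.12 ± 0.09 (SE), adjusted p = 0.297 with edgeR. Without the sample at 329 CPM, Ctrl water 2C replicate 2, it was -0.22 with an adjusted p of 0.0144. In the Kdm5b-injected embryos Smarca4 ran at 200.4, 224 and 245 CPM in zygotes and at 186, 224 and 246 CPM in 2C embryos. These ranges overlapped almost fully, and the log2 fold change was 0.02 ± 0.08 (SE), adjusted p = 0.851.

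Smarca2 (chr19:26605160-26778321, plus strand, 36 merged exons), the BRM gene, was at 442, 499.8 and 668 CPM in Ctrl water zygotes and at 347, 586 and 740.4 CPM in Ctrl water 2C embryos. The 2C samples reached both below and above the zygotes, and the log2 fold change was 0.12 ± 0.12 (SE), adjusted p = 0.418. The 3 Ctrl water 2C libraries with index numbers in the strip of 8 called strip 11 here lay at 565 to 740.4 CPM, and the 6 of strip 12 at 347 to 616 CPM. Index strips follow the library index numbers in the labels, which do not call them batches. All 3 pooled Ctrl water 2C libraries were in strip 12, so a difference between the strips can also be one of pooling. With the strip 11 samples alone as the 2C group the log2 fold change was 0.34, adjusted p = 0.0183, and with strip 12 alone it was -0.06, adjusted p = 0.706. Kdm5b zygotes were at 494, 539 and 567 CPM and Kdm5b 2C embryos at 464, 525 and 619 CPM. The log2 fold change there was 0.005 ± 0.067 (SE), adjusted p = 0.956, with a 95% interval of -0.13 to 0.14.

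Smarcb1 (chr10:75896769-75921614, minus strand, 9 merged exons), a core BAF subunit and the shortest member, fell 1.57-fold. It was at 49.4, 56.96 and 92.96 CPM in Ctrl water zygotes and at 20.0, 40.8 and 57.3 CPM in Ctrl water 2C embryos. Every 2C sample lay below the zygote mean, and 8 of 9 below every zygote. This was a log2 fold change of -0.65 ± 0.16 (SE), adjusted p = 0.00159. With the strip 11 samples alone as the 2C group it was -0.40, adjusted p = 0.0554, and with strip 12 alone -0.85, adjusted p = 0.000328. In the Kdm5b groups, zygotes were at 31.4, 50.7 and 59.1 CPM and 2C embryos at 24.7, 28.3 and 32.8 CPM. Here 4 of 6 2C samples lay below every zygote, and the fall was 1.64-fold (log2 fold change -0.72 ± 0.15 SE, adjusted p = 0.000201).

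Smarcc1 (chr9:110132024-110240178, plus strand, 28 merged exons), the BAF155 core subunit, was at 41.8, 48.8 and 59.99 CPM in Ctrl water zygotes and at 32.8, 45.9 and 71.2 CPM in Ctrl water 2C embryos. The 2C samples lay on both sides of the zygotes, with 3 above all and 4 below all of them. The log2 fold change was -0.0048 ± 0.14 (SE), adjusted p = 0.982. Kdm5b zygotes were at 37.1, 42.3 and 49.9 CPM and Kdm5b 2C embryos at 19.1, 33.6 and 37.5 CPM, and 5 of the 6 2C samples lay below every zygote. In that comparison Smarcc1 fell 1.36-fold (log2 fold change -0.44 ± 0.13 SE, adjusted p = 0.00507). The difference between the 2 stage changes, tested as an interaction with edgeR, was -0.42 ± 0.20 (SE). Its unadjusted p was 0.0406 and its adjusted p 0.512, so a difference was not shown. That fit shared 1 estimate of the spread over both stages, although the spread was larger in 2C embryos (values further on).

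Arid1a (chr4:133679008-133753611, minus strand, 20 merged exons), which encodes the large ARID-domain subunit of canonical BAF, rose 1.38-fold. It was at 1339, 1495 and 1638 CPM in Ctrl water zygotes and at 1627, 1955 and 2601 CPM in Ctrl water 2C embryos. Only the lowest 2C sample fell within the zygote range. Its log2 fold change was 0.46 ± 0.08 (SE), adjusted p = 1.96e-05, and it was 0.50 with strip 11 and 0.39 with strip 12 alone. After Kdm5b injection, zygotes were at 1304, 1495 and 1631 CPM and 2C embryos at 1738, 2029 and 2363 CPM. These 2 groups did not overlap, and the rise was 1.39-fold (log2 fold change 0.47 ± 0.07 SE, adjusted p = 2.27e-06).

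Smarca5 (chr8:80699943-80739459, minus strand, 24 merged exons), the ISWI ATPase whose promoter is printed above, rose 1.24-fold. It was at 256, 309 and 386 CPM in Ctrl water zygotes and at 294, 346 and 518 CPM in Ctrl water 2C embryos, and 3 of the 9 2C samples lay above every zygote. On the log2 scale the change was 0.31 ± 0.11 (SE), adjusted p = 0.0166. It was 0.55 (adjusted p = 0.00108) with the strip 11 samples alone and 0.12 (adjusted p = 0.268) with strip 12 alone, so the test was passed with strip 11 and not with strip 12. Kdm5b zygotes were at 255, 277 and 311 CPM and Kdm5b 2C embryos at 274, 360.5 and 442 CPM. There 5 of the 6 2C samples lay above every zygote, and the rise was 1.31-fold (log2 fold change 0.39 ± 0.09 SE, adjusted p = 0.000498).

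Chd1 (chr17:15704967-15772612, plus strand, 36 merged exons), a CHD-family remodeller known to bind H3K4me3, had the largest log2 fold change in size of the 9 in both stage comparisons. It was at 38.3, 47.8 and 58.9 CPM in Ctrl water zygotes and at 49.99, 92.4 and 153 CPM in Ctrl water 2C embryos. Every 2C sample exceeded the zygote mean, and 8 of 9 exceeded every zygote. The rise was 2.10-fold (log2 fold change 1.07 ± 0.15 SE, adjusted p = 1.54e-06), and its 95% interval of 0.76 to 1.38 spans the threshold of 1. The estimate stayed above 1 in 18 of the 19 fits that left out 1 sample, and was 0.95 without Ctrl water 2C replicate 6. It was 0.82 with the strip 11 samples alone and 1.13 with strip 12 alone. With Kdm5b, zygotes were at 42.9, 49.0 and 57.8 CPM and 2C embryos at 49.8, 99.8 and 142 CPM, and 5 of the 6 2C samples lay above every zygote. There the rise was 1.99-fold (log2 fold change 0.99 ± 0.14 SE, adjusted p = 1.62e-06), just short of the fold threshold. It ranged from 0.85 to 1.12 when 1 sample was left out, and passed 1 without Kdm5b zygote replicate 3, 5 or 10 or Kdm5b 2C replicate 2 or 6. Over all 35 samples, the genes whose centred log2 CPM profile was closest to that of Chd1 were Mybl1 (root mean square difference 0.251) and Zbtb10 (0.262), out of 9204 genes with a mean count of at least 50. Mybl1 had means of 79.4, 78.0, 132 and 129 CPM in Ctrl water zygotes, Kdm5b zygotes, Ctrl water 2C and Kdm5b 2C embryos, and Zbtb10 had means of 118, 115, 204 and 179.8 CPM.

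Chd4 (chr6:125096163-125130514, plus strand, 39 merged exons), the NuRD ATPase, rose 1.26-fold. It was at 941, 997 and 1216 CPM in Ctrl water zygotes and at 958, 1221 and 1724 CPM in Ctrl water 2C embryos, and 5 of the 9 2C samples lay above every zygote. Its log2 fold change was 0.34 ± 0.09 (SE), adjusted p = 0.00295. The strip 11 samples lay at 1221 to 1724 CPM and those of strip 12 at 958 to 1272 CPM. With strip 12 alone as the 2C group the log2 fold change was 0.15, adjusted p = 0.0692, and with strip 11 alone it was 0.57, adjusted p = 5.50e-05. Kdm5b zygotes were at 955, 1024 and 1083 CPM and Kdm5b 2C embryos at 943, 1211 and 1472 CPM. There 5 of the 6 2C samples lay above every zygote and 1 below every zygote, with a rise of 1.22-fold (log2 fold change 0.28 ± 0.08 SE, adjusted p = 0.00353).

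Ino80 (chr2:119373042-119477629, minus strand, 36 merged exons) fell 1.47-fold. It was at 126, 138 and 152 CPM in Ctrl water zygotes and at 65.03, 83.9 and 129.6 CPM in Ctrl water 2C embryos, and 8 of the 9 2C samples lay below every zygote. This was a log2 fold change of -0.56 ± 0.11 (SE), adjusted p = 8.04e-05. It was -0.30 (adjusted p = 0.0216) with the strip 11 samples alone and -0.76 (adjusted p = 2.37e-07) with strip 12 alone. Among Kdm5b samples, zygotes were at 109, 128 and 134 CPM and 2C embryos at 58.2, 83.5 and 97.3 CPM. These 2 groups did not overlap, and the fall was 1.55-fold (log2 fold change -0.63 ± 0.10 SE, adjusted p = 4.77e-06).

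In the Kdm5b-injected embryos 4 members were higher and 3 lower in 2C by adjusted p alone, against 29.3% and 29.5% of all 12390 genes tested. Past both thresholds 0 members were higher and 0 lower, against 10.5% and 16.0% of all genes. The Kdm5b stage comparison shares no library with the water stage comparison, though both set the same library days against each other. The 6 members that rose or fell in the water embryos had the same direction past the test in the Kdm5b embryos. The share of all genes that did so was not computed. Smarcc1 passed in the Kdm5b embryos alone, with the interaction given above. The median log2 fold change of the members in the Kdm5b stage comparison was 0.02, against 0.008 over all genes tested. The part that index strip, pooling, freezing and library day had in these stage differences was not tested beyond the strip values given. With single intact 2C embryos each member that passed in a stage comparison kept its direction in that comparison. Its fold change there is not given.

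**Figure D2:**
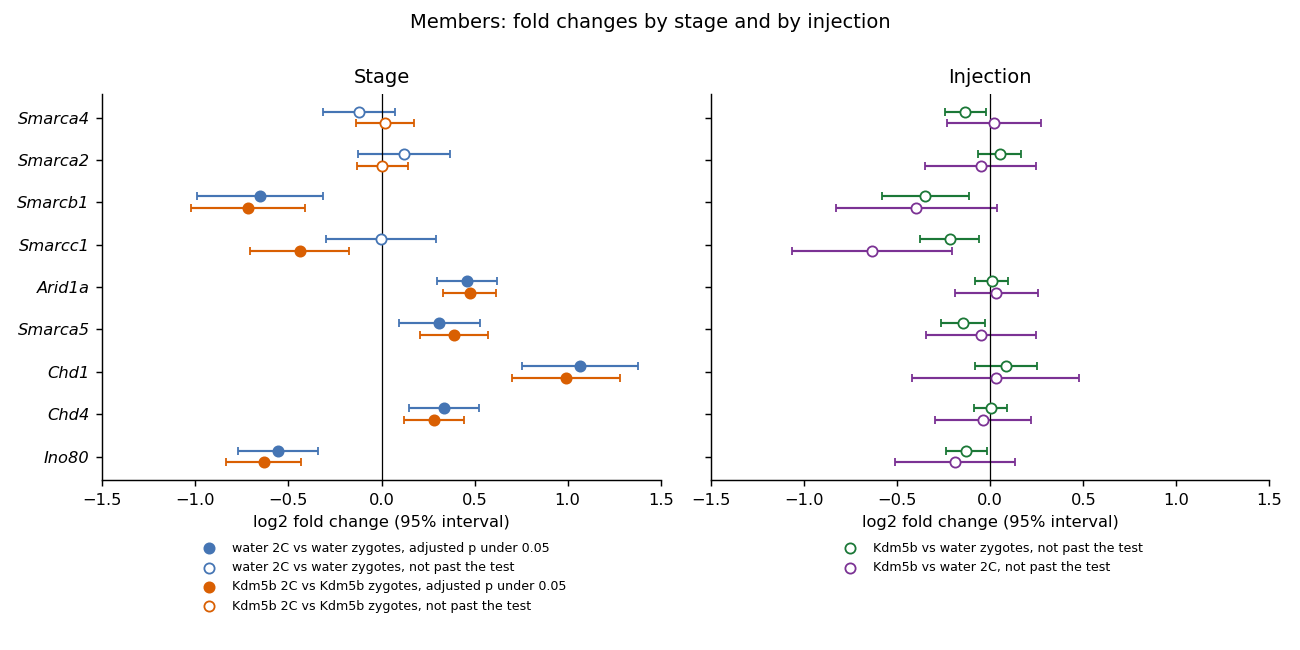
Log2 fold change (x axis) with its 95% interval for each of the 9 members (y axis), by stage in the left panel and by injection in the right panel. Filled circles had an adjusted p under 0.05 and open circles did not. The stage panel runs from -0.72 for Smarcb1 to 1.07 for Chd1, and every circle of the injection panel is open.

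The injection comparisons asked whether Kdm5b-yfp mRNA changed the remodeller transcripts within a stage. None of the 9 members passed edgeR's test between injections in zygotes or in 2C embryos. In zygotes 0 members had an adjusted p under 0.05, against 0.134% of the 11933 genes tested, and 0 passed both thresholds, against 0.00838%. At an unadjusted p under 0.05 there were 5 of 9 members, all with lower estimates in Kdm5b zygotes, against 1234 of the 11933 genes (10.3%). Smarcb1, the core BAF subunit, had a log2 fold change of -0.35 ± 0.12 (SE) with an adjusted p of 0.256, the smallest of the 9. All 10 Kdm5b zygotes lay below the Ctrl water mean of 61.01 CPM for Smarcb1, and 5 lay below every Ctrl water zygote. Without Ctrl water zygote replicate 3, at 92.96 CPM, the mean was 57.5 CPM with 9 of 10 Kdm5b zygotes below it, and the log2 fold change was -0.27 with an adjusted p of 0.462. Within index strips its log2 fold change was -0.44 in strip 8, -0.08 in strip 9 and -0.79 in strip 10, with adjusted p of 0.737, 0.954 and 0.242. For Smarcc1 all 10 Kdm5b zygotes lay below the Ctrl water mean of 50.4 CPM, with a log2 fold change of -0.22 ± 0.08 (SE) and an adjusted p of 0.317. The other 3 were Smarca5 at -0.15, Smarca4 at -0.13 and Ino80 at -0.13, with adjusted p of 0.366, 0.388 and 0.3995. The 95% intervals of the remaining 4 were -0.07 to 0.17 for Smarca2, -0.08 to 0.10 for Arid1a, -0.08 to 0.25 for Chd1 and -0.08 to 0.09 for Chd4. The median of the 9 was -0.13, against 0.01 over all genes tested. DESeq2's Wald test and limma voom with sample weights also called 0 members past both thresholds, against 0% and 0.00838% of all genes. So few genes passed that these counts do not set the members apart.

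In 2C embryos 0 members had an adjusted p under 0.05, against 0.0245% of the 12244 genes tested, and 0 passed both thresholds, against 0.00817%. Index strips were uneven here, with 5 of 6 Kdm5b and 3 of 9 Ctrl water samples in strip 11. With the strip as a covariate 0 members passed, while 2.07% of all genes had an adjusted p under 0.05 and 0.433% passed both thresholds. Within strip 11 alone 0 members passed, against 0.893% and 0.563% of 12426 genes. Smarcc1 was the only 1 of the 9 with an unadjusted p under 0.05, a share near the 9.41% of all genes (1152 of 12244). It was at 32.8, 45.9 and 71.2 CPM in Ctrl water 2C embryos and at 19.1, 33.6 and 37.5 CPM in Kdm5b 2C embryos. All 6 of the Kdm5b samples lay below the Ctrl water mean, and 3 lay below every Ctrl water sample. The log2 fold change was -0.63 ± 0.21 (SE), with an unadjusted p of 0.00583 and an adjusted p of 0.332. Fitted with all 35 samples sharing 1 estimate of the spread, it was -0.64 with an adjusted p of 0.0111, in a fit where 3.83% of 13778 genes had an adjusted p under 0.05. The median SD of log2 CPM over genes was 0.46 and 0.38 in Ctrl water and Kdm5b 2C embryos, against 0.23 and 0.21 in zygotes. The shared estimate can therefore understate the 2C spread. Within index strip 11, with 3 Ctrl water and 5 Kdm5b samples, the log2 fold change of Smarcc1 was -0.58 with an adjusted p of 0.343. Smarcb1 was next at -0.40 ± 0.21 (SE), adjusted p = 0.579, with all 6 Kdm5b samples below the Ctrl water mean of 38.03 CPM. The 95% intervals of the other 7 all included 0, from the narrowest, Arid1a at -0.19 to 0.26, to the widest, Chd1 at -0.42 to 0.48. The injection and stage effects were also fitted together, and in that interaction 0 members had an adjusted p under 0.05, against 0.109% of the 13778 genes tested.

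Levels of different genes were set side by side as TPM, with the exon lengths of the count table. Arid1a and Chd4 had the highest levels of the 9 and Smarcc1 and Chd1 the lowest in zygotes. In Ctrl water zygotes the medians were 563 TPM for Arid1a, 475 for Chd4, 252 for Smarca2, 209 for Smarca5, 116 for Smarca4, 106 for Smarcb1, 67.5 for Ino80, 26.8 for Smarcc1 and 18.9 for Chd1. In Ctrl water 2C embryos they were 689.7, 537, 283, 227, 95.8, 70.8, 38.9, 24.8 and 33.5 TPM in the same gene order, so Chd1 stood above Smarcc1. Kdm5b zygotes kept the zygote order, with 565 TPM for Arid1a and 18.9 for Chd1 at the ends. Kdm5b 2C embryos had 719.9 TPM for Arid1a and 17.1 for Smarcc1 at the ends.

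**Figure D3:**
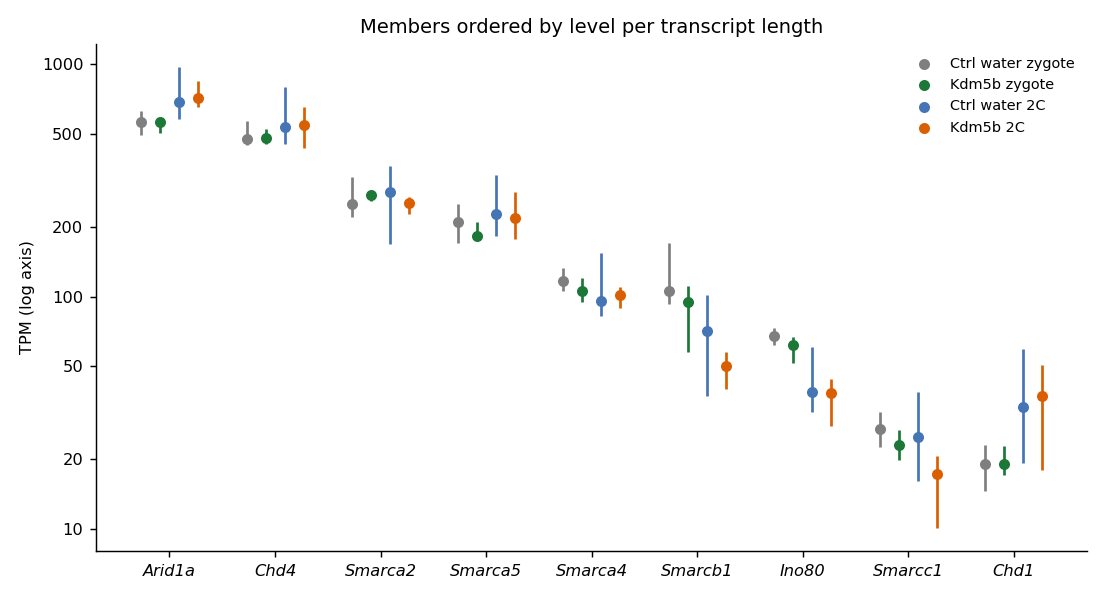
Level per transcript length in TPM (y axis, log scale) of the 9 members (x axis, ordered by the Ctrl water zygote median) in the 4 groups. Points are medians and lines run from the lowest to the highest sample (n = 10, 10, 9 and 6). Chd1 rises from 18.9 TPM in Ctrl water zygotes to 33.5 TPM in Ctrl water 2C embryos and crosses Smarcc1.

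Neighbours in the order were compared within samples by an exact sign-flip permutation test on log2(TPM + 0.1), two-sided, with Benjamini-Hochberg adjustment over 32 pairs. In 27 of the 32 the neighbours differed. The pairs and their direction were set by the mean TPM of the same samples, so this count is a description. Smarca4 and Smarcb1 could not be told apart in Ctrl water zygotes (adjusted p = 0.246), with a mean log2 difference of 0.07. Smarca2 and Smarca5 could not be told apart in Ctrl water 2C (adjusted p = 0.319) or Kdm5b 2C embryos (adjusted p = 0.246). Ino80 and Chd1 could not be told apart in Ctrl water 2C (adjusted p = 0.246) or Kdm5b 2C embryos (adjusted p = 0.813). The smallest p the test allows is 0.00195 with 10 samples and 0.0313 with 6. Chd1 stood above Smarcc1 in 9 of 9 Ctrl water 2C samples (mean log2 difference 0.48, adjusted p = 0.00781) and in 6 of 6 Kdm5b 2C samples (1.12, adjusted p = 0.037). In zygotes Smarcc1 stood above Chd1 in 10 of 10 samples of both injections.

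Within paralogue pairs the levels were uneven in TPM. Smarca2 exceeded Smarca4, the alternative BAF ATPase, in every sample, with median ratios of 2.28 in Ctrl water zygotes, 2.54 in Kdm5b zygotes, 2.80 in Ctrl water 2C and 2.48 in Kdm5b 2C embryos. Arid1a exceeded Arid1b, its alternative ARID subunit, in every sample, with median ratios of 2.62, 2.696, 3.21 and 3.58 in the same order. Smarcc1 lay below Smarcc2, its BAF170 paralogue, in every sample, with median ratios of 0.487, 0.473, 0.504 and 0.387. Chd4 exceeded Chd3, another NuRD ATPase, in every sample, with median ratios from 52.7 to 59.2. Near-identical stretches of such pairs could split reads, which leaves these ratios uncertain to that extent.

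The spread of a member between embryos differed between groups. The SD of log2 CPM among Kdm5b zygotes was 0.059 for Chd4, 0.062 for Smarca2 and 0.076 for Smarca5, at percentiles 0.315, 0.587 and 1.90 of 9204 genes. In Ctrl water zygotes these 3 were at percentiles 9.39, 34.6 and 33.6, and Smarca2 was at 38.1 in Ctrl water 2C embryos. Among Ctrl water zygotes it was 0.084 for Arid1a and 0.094 for Ino80, at percentiles 3.44 and 5.79. Smarcb1 was the most variable of the 9 in zygotes, with an SD of 0.26 in Ctrl water and 0.34 in Kdm5b zygotes, at percentiles 58.5 and 77.2. Without Ctrl water zygote replicate 3, at 92.96 CPM, the Ctrl water SD was 0.14, below the 0.20 of Chd1, 0.19 of Smarcc1 and 0.18 of Smarca2. In 2C embryos the median SD over genes was 0.46 in Ctrl water and 0.38 in Kdm5b, against 0.23 and 0.21 in zygotes. Chd1 had SDs of 0.46 and 0.50 there, at percentiles 50.02 and 68.5. Percentiles of SD depend on the level of a gene and are given as a description.

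The rest of the remodeller families were described from 87 further listed genes. In Ctrl water 2C embryos against zygotes 83 were tested, of which 26 were higher and 25 lower by adjusted p alone, and 8 higher and 11 lower past both thresholds. By adjusted p alone these were 31.3% and 30.1% of the listed genes, against 26.8% and 25.4% of all genes, and past both 9.64% and 13.3%, close to the 9.20% and 13.0% of all genes. Their median log2 fold change was 0.07, against 0.02 over all genes tested. The counts by family below are of genes past both thresholds, and the genes named are those with the smallest p among them.

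**Figure D4:**
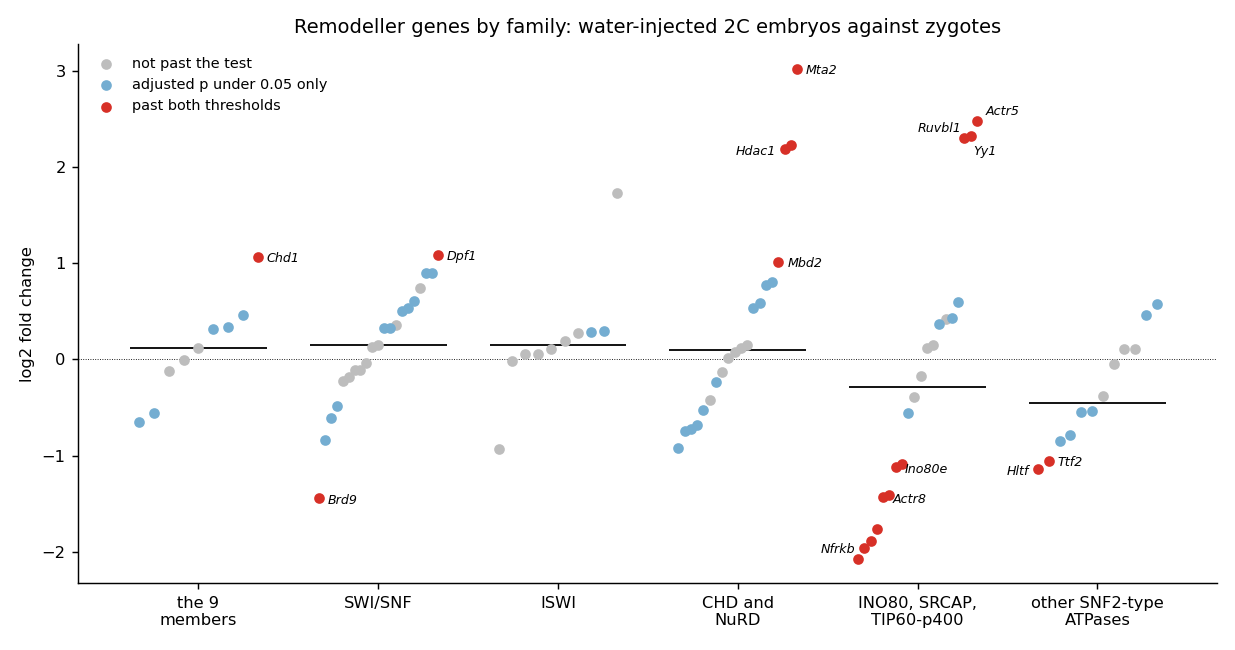
Log2 fold change of Ctrl water 2C embryos against Ctrl water zygotes (y axis) for the 9 members and 5 lists of other remodeller genes (x axis). Points are genes, coloured by the thresholds they passed, and black lines are list medians. The INO80, SRCAP and TIP60-p400 list has 8 red points below 0 and 3 above, and its median is -0.28.

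In the INO80, SRCAP and TIP60-p400 list, 8 of 20 genes tested fell (40.0%) and 3 rose (15.0%) past both thresholds, against 13.0% and 9.20% of all genes. The median log2 fold change of this list was -0.28. Nfrkb, an INO80 subunit, was at 191, 265 and 352 CPM in Ctrl water zygotes and at 29.4, 61.9 and 154 CPM in Ctrl water 2C embryos, with no overlap (log2 fold change -1.96 ± 0.23 SE, adjusted p = 9.93e-08). Actr8, an actin-related INO80 subunit, fell from a median of 68.3 to 23.8 CPM (-1.43, adjusted p = 2.21e-08). Ino80e, another subunit of the complex, fell from 64.2 to 27.2 CPM (-1.12, adjusted p = 3.65e-09). In the other direction Yy1, a zinc-finger subunit of INO80, rose from 8.39 to 33.8 CPM (2.30, adjusted p = 7.80e-08). Ruvbl1, an AAA+ ATPase shared by the 3 complexes, rose from 4.22 to 20.5 CPM (2.32, adjusted p = 4.54e-07). Actr5, an actin-related INO80 subunit, rose from 0.768 to 2.08 CPM at the median with overlapping groups (2.48, adjusted p = 0.000919). The Ino80 ATPase itself fell, as given above.

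In the CHD and NuRD list, 4 of 20 genes rose (20.0%) and 0 fell past both thresholds, against 9.20% and 13.0% of all genes. By adjusted p alone 8 were higher (40.0%) and 6 lower (30.0%), against 26.8% and 25.4% of all genes. In the Kdm5b stage comparison 4 were higher (20.0%) and 3 lower (15.0%) past both thresholds, against 10.5% and 16.0% of all genes. The median log2 fold change of this list in the water embryos was 0.10. Mta2, a NuRD scaffold subunit, rose from a median of 2.40 to 17.5 CPM (log2 fold change 3.02 ± 0.41 SE, adjusted p = 9.98e-07). Hdac1, the histone deacetylase of NuRD, rose from 9.91 to 25.5 CPM (2.18, adjusted p = 3.46e-07), and every 2C sample lay above every zygote. Mbd2, a methyl-CpG-binding NuRD subunit, rose from 12.4 to 25.1 CPM (1.02, adjusted p = 9.41e-06), also without overlap. In the SWI/SNF list, 1 of 21 genes tested rose and 1 fell past both thresholds, 4.76% each, against 9.20% and 13.0% of all genes. Brd9, the bromodomain subunit of non-canonical BAF, fell from 93.3 to 32.4 CPM without overlap (-1.44 ± 0.17 SE, adjusted p = 1.20e-07). Dpf1, a BAF45 subunit, was at medians of 1.16 and 1.99 CPM with overlapping groups (1.08, adjusted p = 0.0286). In the ISWI list 0 of 10 genes passed both thresholds. By adjusted p alone 2 of them were higher (20.0%), against 26.8% of all genes, and 0 lower, against 25.4%. In the list of other SNF2-type ATPases 0 of 12 rose past both thresholds, against 9.20% of all genes, and 2 fell (16.7%, against 13.0%). These were Hltf, a translocase at stalled replication forks, from 31.0 to 15.3 CPM (-1.14, adjusted p = 5.75e-05), and Ttf2, a transcription termination ATPase, from 35.9 to 15.1 CPM (-1.05, adjusted p = 0.000273).

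In Kdm5b 2C embryos against Kdm5b zygotes 82 of the listed genes were tested, of which 7 (8.54%) were higher and 16 (19.5%) lower past both thresholds, against 10.5% and 16.0% of all genes. Of the 19 listed genes past both in the water comparison 15 were also past both there in the same direction. These were 78.9% of the water genes and 65.2% of the 23 Kdm5b genes. The overlap over all genes was not computed, so this share is not read as particular to remodeller genes. Ruvbl1, for example, had a log2 fold change of 1.55 and Nfrkb of -2.28 in the Kdm5b stage comparison. Dpf1 and Actr5 did not pass there, with log2 fold changes of 0.20 (adjusted p = 0.742) and -0.41 (adjusted p = 0.518).

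**Figure D5:**
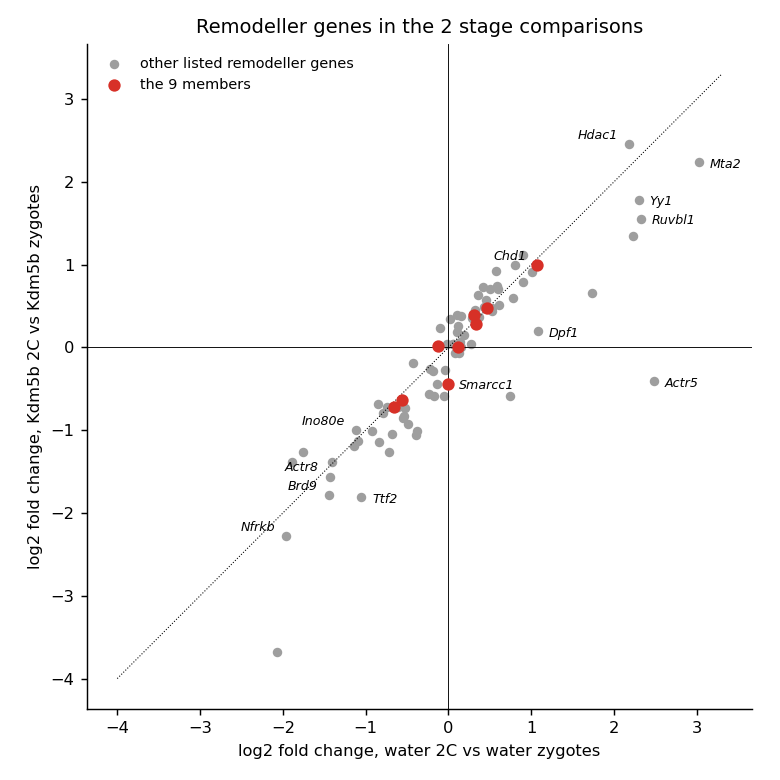
Log2 fold change by stage in Kdm5b-injected embryos (y axis) against that in water-injected embryos (x axis) for 82 listed remodeller genes in grey and the 9 members in red. The dotted line marks equal values. Most points lie near the line, Smarcc1 lies below it, and Actr5 lies at 2.48 in water and -0.41 in Kdm5b embryos.

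With the injection in zygotes 12 of 82 listed genes tested (14.6%) had an unadjusted p under 0.05, against 10.3% of all genes. Past both thresholds there were 0, against 0.00838% of all genes. By adjusted p alone there was 1 (1.22%), against 0.134% of all genes. This was Mbd3, a NuRD subunit related to Mbd2, named for this result after its values were seen. Mbd3 was at 44.2, 59.3 and 71.8 CPM in Ctrl water zygotes and at 35.4, 41.1 and 53.9 CPM in Kdm5b zygotes, with overlapping groups. It fell by 0.43 on the log2 scale (SE 0.09, adjusted p = 0.0306). The call was kept with DESeq2's Wald test (adjusted p = 0.00134), and with edgeR under the replicate block (0.0451) or the strip covariate (0.0390). DESeq2 size factors, both other filters on counts and keeping the Kdm5b row also kept it. It was lost within each index strip, with log2 fold changes of -0.37, -0.52 and -0.39 in strips 8, 9 and 10. Those fits held 4, 4 and 2 samples a group, and at most 0.0332% of all genes passed. With limma voom (adjusted p = 0.0559) and in 11 of the 20 fits that left out 1 sample it was lost too. In those 20 fits the log2 fold change was -0.47 to -0.39. The call was also lost in the fit of all 35 samples (adjusted p = 0.708), where 0 of 13778 genes passed. That fit shares 1 spread between stages and can overstate the spread of zygotes, which was smaller than that of 2C embryos. In 2C embryos 0 of 81 listed genes tested had an adjusted p under 0.05 with edgeR, against 0.0245% of all genes tested. An unadjusted p under 0.05 was found for 13 (16.0%), against 9.41% of all genes tested. Mbd3 was at 40.1, 56.1 and 82.1 CPM in Ctrl water and at 42.0, 57.4 and 60.9 CPM in Kdm5b 2C embryos, with a log2 fold change of -0.08 and an adjusted p of 0.938.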

How the data were processed

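Total RNA libraries (SMART-Seq Stranded kit) of 35 samples were analysed. The authors deposited whole-number counts per gene, made with fastp 0.21.0, STAR 2.7.3a on GRCm38/mm10 and strand-specific featureCounts 1.5.1 with RefSeq genes. A table of repeat-element estimates was not used here. The Kdm5b row was removed, genes were kept by filterByExpr (minimum count 10), and groups were compared with edgeR 4.0.16 (TMM, quasi-likelihood test, Benjamini-Hochberg adjustment over all genes) in R 4.3.3, tested beforehand on simulated counts. Calls used an adjusted p under 0.05 and a log2 fold change beyond 1. TPM came from the counts and the deposited exon lengths.

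The members and lists were chosen with earlier results of these data known. Named were all members, up to 3 genes a list and direction with the smallest p past both thresholds in the water stage comparison, any listed gene past both with the injection, and the 2 genes most like each called member. Alternatives covered scaling, DESeq2 1.42.0, limma 3.58.1, filters, the Kdm5b row, pooled fits, replicate numbers, index strips, intact embryos and each sample left out, of which the fits within or with 1 index strip alone, and the strip term in the interaction, were chosen after seeing the data.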

Additional observations from a re-analysis of the deposited data

Results flagged for a closer look

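In 2 of the 36 sets of values (9 members in 4 groups) 1 sample stood far from the rest of its group by Dixon's criterion, and chance alone gives about 1 in 20. Smarca4, the BRG1 gene, was at 329 CPM in Ctrl water 2C replicate 2, against a group median of 213 CPM. Smarcb1, the core BAF subunit, was at 92.96 CPM in Ctrl water zygote replicate 3, against a group median of 56.96 CPM.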

How the results depend on the processing

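Over the alternatives other than leaving out a sample, 461 fold changes and mean TPM values stayed the same. A fold change did so when it kept its direction and side of the threshold, and a mean TPM when it moved by less than its group SD. Of the fold changes 43 turned sign, 4 newly passed and 4 no longer passed, and 1 mean TPM moved. Of the counts 179 stayed within 1.5 times and 22 did not. The 6 members that passed in the water stage comparison kept their direction in every alternative run, as did the 7 of the Kdm5b stage comparison. The cause of the changes below was not tested, except where fewer samples or another threshold made them.

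Chd1, the 1 member called in the water stage comparison, was past both thresholds in none of limma voom, the fit with no filter on low counts, the replicate block or the strip 11 samples alone, where 0 members were called higher. In the Kdm5b stage comparison Chd1 made 1 member called with DESeq2 size factors, DESeq2's Wald test, a filter at a mean of 50 counts or single intact 2C embryos. By adjusted p alone the water stage counts were 4 and 2 members and 26 and 25 listed genes (higher and lower), those of the Kdm5b stage 4 and 3 members and 29 and 31 listed genes, and 1 listed gene was lower in Kdm5b zygotes. The mean-50 filter left 5 listed genes higher in the water stage comparison. Between injections in 2C, 1 listed gene was lower with all 35 samples in 1 fit (Actr5), 1 with index strip as a covariate (Hells) and 2 within strip 11 (Mta3 and Hells), named after their values were seen. With single intact 2C embryos, 17 pairs of neighbours in TPM could not be told apart. The smallest exact p there is 0.0625 with the 5 Kdm5b samples and 0.0313 with the 6 Ctrl water samples, before adjustment over all pairs. The first alone does not account for pairs outside the Kdm5b 2C group. With Kdm5b kept in the total, mean TPM of Smarca2 in Kdm5b 2C embryos was 235. Of the members, Smarca4 passed in the water stage comparison with voom (-0.18, adjusted p = 0.0478) and with strip 12 alone (-0.27, adjusted p = 0.00323), and Smarca5 did not with no filter (0.22, adjusted p = 0.0911).

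The members that changed sign were all past no threshold, and most were close to 0 (log2 fold changes). Between injections in zygotes, Chd4 was -0.0026 with DESeq2 size factors, -0.0027 with DESeq2's Wald test, -0.00077 with no filter, -0.0030 with the mean-50 filter, -0.0053 with the Kdm5b row kept, -0.0081 in the fit of all 35 samples and -0.073 within strip 10. Arid1a was -0.00082 with the Kdm5b row kept, -0.0028 in the fit of all 35 and -0.086 within strip 9, where Smarca2 was -0.029. Between injections in 2C, Smarca4 was -0.00056 with the mean-50 filter, -0.024 in intact embryos, -0.065 with the strip covariate and -0.22 within strip 11. Arid1a was -0.020, -0.0014 and -0.045 in the last 3 of these, and Chd1 was -0.037 in intact embryos. Voom gave 0.0048 for Smarca2, 0.060 for Smarca5 and 0.039 for Chd4. By stage in water embryos, Smarcc1 was 0.033 with DESeq2 size factors, DESeq2's Wald test and the mean-50 filter, 0.16 in intact embryos and 0.0088 with strip 11 alone, where Smarca4 was 0.062. Smarca2 was -0.058 with strip 12 alone. By stage in Kdm5b embryos, Smarca2 was -0.069 with no filter, -0.0084 in the fit of all 35 and -0.052 in intact embryos, and Smarca4 was -0.054 with no filter. In the interaction, Smarca5 was -0.014 in intact embryos and -0.12 with the strip covariate, Arid1a was -0.041 and -0.015 in these, and Chd1 was 0.064 with the strip covariate.

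Replicate numbers did not pair samples: deviations of same-numbered samples correlated at -0.18 to 0.10, over 0.1 in 1 of 10 zygote pairs and in none of the others, and 2 samples in all matched best with their own number. The replicate block changed no member's side of the adjusted p, gave Chd1 0.99 in the water stage comparison (0 members called higher, 6 and 11 listed genes), and turned Smarca4 to -0.012, Smarca2 to 0.026 and Chd1 to -0.065 between injections in 2C, and Smarca5 to -0.040 and Arid1a to -0.0018 in the interaction.

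Leaving out each sample in turn gave 0 to 1 members called higher in both stage comparisons, 6 to 8 listed genes higher and 10 to 11 lower in water embryos, and 5 to 7 and 13 to 18 in Kdm5b embryos. Signs turned in these ranges: between injections in zygotes Arid1a -0.011 to 0.026 and Chd4 -0.014 to 0.030, in 2C Smarca4 -0.012 to 0.11, Smarca2 -0.12 to 0.0099, Smarca5 -0.13 to 0.017, Arid1a -0.0091 to 0.091, Chd1 -0.12 to 0.16 and Chd4 -0.099 to 0.028, by stage Smarcc1 -0.093 to 0.053 in water embryos, and Smarca4 -0.022 to 0.062 and Smarca2 -0.052 to 0.036 in Kdm5b embryos. Every member value rested on at least 188 counts.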
